A study of Mus musculus with 6 samples.

Results

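Chemokine ligands are small secreted or membrane-anchored proteins that attract leukocytes. The genes described here were picked out by symbol. They are every row of the authors' deposited table named Ccl, Cxcl, Cx3cl or Xcl followed by a number. That pattern found 10 of the 1285 genes listed there, Ccl2, Ccl6, Ccl7, Ccl9, Ccl19, Cxcl5, Cxcl9, Cxcl10, Cxcl16 and Cx3cl1. The table lists only genes with an unadjusted p below 0.05 in the comparison of the genotypes (largest listed, 0.0499). The pattern itself uses no measured value, but it was chosen with earlier results of these data known. Each of the 10 is also present because it passed that limit on p, so their differences are given as a description.

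The cells were mesenchymal stem and progenitor cells, or MSPCs, sorted from mouse bone marrow. They are stroma that help to form the niche of blood stem cells. There were 3 control libraries and 3 from Snai2-/- littermates, which lack Snai2, the gene of the zinc-finger repressor Slug. All mice were 8 weeks old. Each library was made from 2000 cells sorted without CD45, Ter119 or CD31, which mark leukocytes, erythroid cells and endothelium, and with Nes-GFP, a fluorescent reporter under nestin control that both genotypes carried. The labels give neither the background strain nor the Snai2 genotype of the control littermates. Nor do they tie libraries to single animals, and the spread behind the authors' p may in part be technical.

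Chemokine genes fall into classes by the receptor of their product and by what switches them on. Inflammatory chemokines such as Ccl2 are induced through NF-kB, Cxcl9 and Cxcl10 above all by interferon, and homeostatic ones such as Ccl19 are made without inflammation. In the marrow, stromal cells release Ccl2 to let monocytes leave, and gradients of Cxcr2 ligands draw neutrophils out, while Cxcl12 holds blood stem cells and neutrophils in place.

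The values are 1 least-squares mean per group on the authors' normalized scale, with no unit named, and values of single libraries were not analysed here. No spread, depth or overlap of the groups can therefore be given for any gene. Snai2 averaged 636 in control libraries against 9.20 without it per the authors' deposited table, in the direction the labels give. Among marker genes of marrow stroma, the transcription factor gene Ebf1 was listed, with a ratio of Snai2-/- to control of 0.580 per the authors' deposited table. Lepr, Kitl, Nes and Cxcl12 were not listed, so the identity of the cells could not be checked on them.

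Of the 10 chemokine genes, 6 had a lower and 4 a higher mean in Snai2-/- cells. Lower were Ccl2, Ccl7, Cxcl9, Cxcl10, Cxcl16 and Cx3cl1. Higher were Ccl6, Ccl9, Cxcl5 and Ccl19. Over all genes tested, 7.69% were listed, 3.91% lower and 3.77% higher. Since being listed is what brought these genes in, nothing is read from those shares. None of the 10 passed a step-up false discovery rate (FDR) of 0.05 per the authors' deposited table, where 0% of all genes tested did, and all 10 had an unadjusted p below 0.05. Their FDR ran from 0.381 for Cxcl16 to 0.640 for Cxcl10. The median log2 ratio of the 10 was -0.50, beside -0.36 over all 1285 listed genes.

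**Figure D1:**
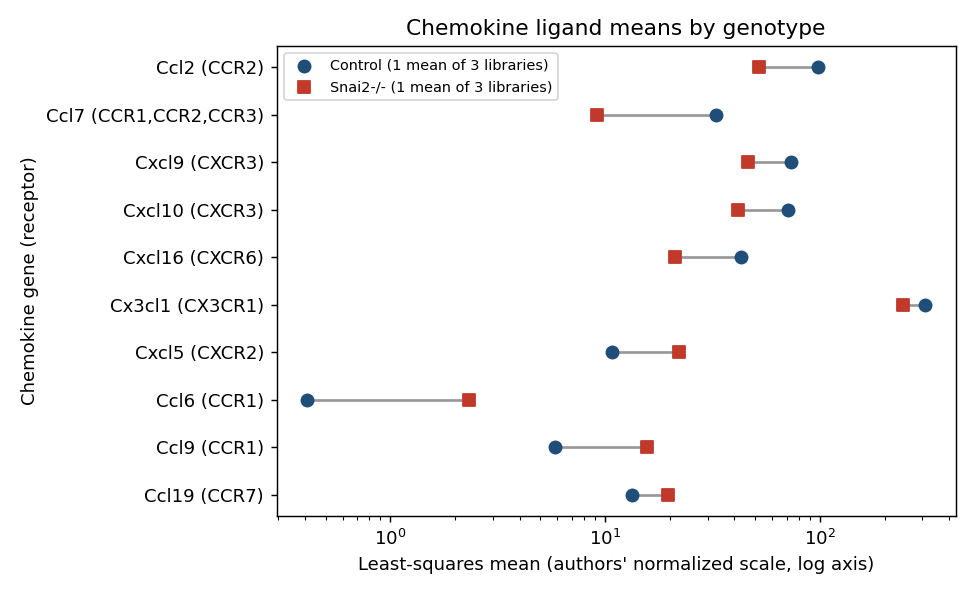
Least-squares mean of each chemokine gene in control (circles) and Snai2-/- cells (squares), 1 mean of 3 libraries each, on a log axis in the authors' normalized scale, with the receptor in brackets. In the upper 6 rows the Snai2-/- mean is the lower of the pair (by the least for Cx3cl1), and in the lower 4 rows it is the higher. No error bars can be drawn from group means.

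Of these genes, 6 lie in 3 pairs of close neighbours in the genome, and both genes of each pair differed in the same direction. Ccl2 (GRCm38 chromosome 11, 82035571 to 82037453, plus strand) and Ccl7 (chromosome 11, 82045712 to 82047525, plus strand) are 8258 bases apart and were both lower. Cxcl9 (chromosome 5, 92321347 to 92328079, minus strand) and Cxcl10 (chromosome 5, 92346638 to 92348889, minus strand) are 18558 bases apart and were both lower. Ccl9 (chromosome 11, 83572919 to 83578636, minus strand) and Ccl6 (chromosome 11, 83587882 to 83593087, minus strand) are 9245 bases apart and were both higher. No protein-coding gene lies wholly between the genes of any pair. Other listed genes nearby did not all share a pair's direction. Sdad1, 10868 bases from Cxcl9, had a ratio of 1.45 per the authors' deposited table, and Naaa, 43177 bases from Cxcl9, a ratio of 0.624. Both were picked after their values were seen.

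The stretches before the start sites of the Cxcl9 and Cxcl10 pair are shown because the genes share a receptor, a locus and a direction. Each is the 250 bases before the start annotated by RefSeq on GRCm38.p6, read 5′ to 3′ on the gene's strand, the minus strand. The first is chr5:92348890-92349139 and the second chr5:92328080-92328329. In Cxcl10 the capitals mark, in order, the core to which interferon regulatory factors (IRFs) bind, a kappaB match, a pair of overlapping kappaB matches, and a run of 11 bases that is also in Cxcl9. In Cxcl9 they mark an IRF core and that run, which holds a CCAAT box.
Cxcl10: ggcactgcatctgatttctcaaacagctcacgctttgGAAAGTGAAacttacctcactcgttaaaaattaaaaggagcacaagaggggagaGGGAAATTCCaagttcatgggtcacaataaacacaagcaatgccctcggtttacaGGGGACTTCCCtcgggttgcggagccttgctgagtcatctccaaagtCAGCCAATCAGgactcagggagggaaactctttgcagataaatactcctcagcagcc
Cxcl9: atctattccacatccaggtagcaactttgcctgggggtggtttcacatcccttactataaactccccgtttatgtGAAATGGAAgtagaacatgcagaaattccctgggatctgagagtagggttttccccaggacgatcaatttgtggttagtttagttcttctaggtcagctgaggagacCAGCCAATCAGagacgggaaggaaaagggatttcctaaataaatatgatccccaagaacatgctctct

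The same stretches of the Ccl6 and Ccl9 pair, also on the minus strand, are shown for their shared run of 13 bases, the longest between any 2 of the 6 promoters at hand. They are chr11:83593088-83593337 for Ccl6 and chr11:83578637-83578886 for Ccl9. Capitals mark the shared run and, before it in Ccl9, a kappaB match on the opposite strand.
Ccl6: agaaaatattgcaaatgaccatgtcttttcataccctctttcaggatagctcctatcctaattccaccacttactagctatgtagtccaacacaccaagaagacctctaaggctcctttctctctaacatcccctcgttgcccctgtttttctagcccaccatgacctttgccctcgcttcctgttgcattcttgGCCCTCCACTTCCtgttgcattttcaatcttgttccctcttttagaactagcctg
Ccl9: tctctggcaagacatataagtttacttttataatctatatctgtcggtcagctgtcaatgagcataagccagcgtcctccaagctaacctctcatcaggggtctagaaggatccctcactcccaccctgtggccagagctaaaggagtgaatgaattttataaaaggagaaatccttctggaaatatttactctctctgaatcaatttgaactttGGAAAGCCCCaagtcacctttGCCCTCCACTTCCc

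Promoter windows were at hand for 6 of the 10 genes, Ccl6, Ccl9, Ccl19, Cxcl9, Cxcl10 and Cx3cl1. Each window held the 250 bases before and the 50 from the start, and 4 motifs were searched on both strands. The IRF core, GAAANNGAA, was in Cxcl9, Cxcl10 and Ccl19, and in 8.56% of all 32851 windows of that length. Counted from the RefSeq start, its first base lay 175 bases upstream in Cxcl9, 213 in Cxcl10 and 208 in Ccl19, and the match has the same letters in Cxcl10 and Ccl19. Cxcl9 and Cxcl10 had the lower and Ccl19 the higher mean in Snai2-/- cells, so this match did not go with 1 direction. GENCODE places the start of Ccl19 further upstream, and by the gene coordinates given for Ccl19 below the match lies just inside the gene. The stretch of Ccl19, chr4:42756555-42756583 on the minus strand, is shown for that contrast, with the match in capitals.
Ccl19: ttttgggacaGAAAGTGAAagctcaaggc

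The kappaB consensus was in Cxcl10 and Ccl9, again 1 gene of each direction, and in 8.46% of all windows. Overlapping matches were counted once per window. The core of the interferon-gamma activated site, TTCNNNGAA, was in none of the 6 and in 8.30% of all windows. CAGGTG, the E-box to which Snail family repressors bind, was also in none of the 6 and in 20.2% of all windows. For Cx3cl1, GENCODE starts the gene at 94772009, inside its 250 bases (chr8:94771930-94772179). Most of that stretch thus lies within the gene by GENCODE. The run shared by Cxcl10 and Cxcl9 was in 0.791% of all windows and that shared by Ccl6 and Ccl9 in 0.0183%, both picked after the sequences were compared. Over the 15 pairs of windows, the longest shared run was 13 bases in Ccl6 with Ccl9 and 11 in Cxcl10 with Cxcl9. It was 10 bases in Ccl19 with Cxcl10, in Ccl9 with Cxcl10 and in Cx3cl1 with Cxcl9, none of them close neighbours. Of these runs of 10, only that of Ccl19 and Cxcl10 holds the whole IRF core. Aligned identity did not set the neighbours apart, with 53.4% for Ccl6 and Ccl9, 51.2% for Cxcl10 and Cxcl9, and 53.2% for the unlinked Ccl19 and Cx3cl1. The alignment score was highest for these neighbours, 118 for Ccl6 and Ccl9 and 100 for Cxcl10 and Cxcl9. Next came the unlinked Ccl19 and Cxcl10, with 90, and no test of the scores was made. A match describes letters in a window and is no measured binding.

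**Figure D2:**
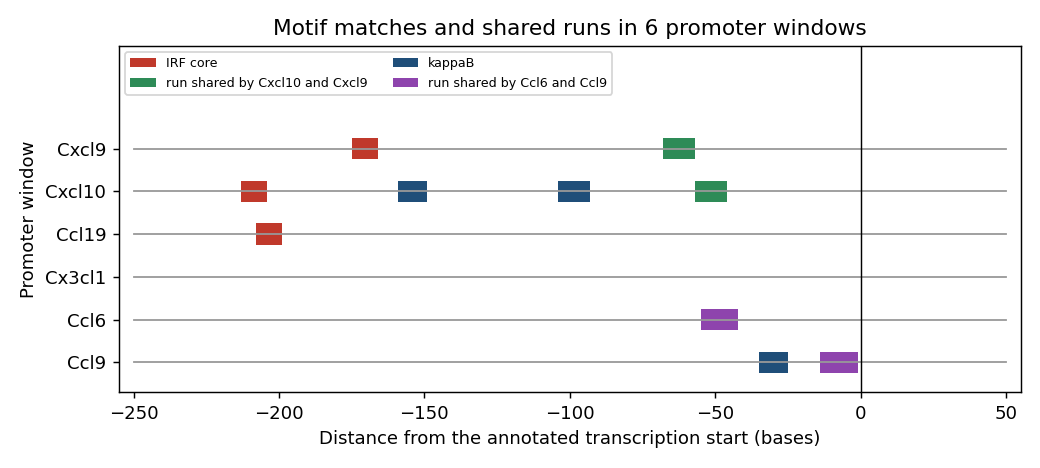
Position of motif matches (IRF core, kappaB) and shared runs in the 6 promoter windows, in bases from the RefSeq start, from 250 before to 50 after it. Starts are those of RefSeq, and the GENCODE start of Ccl19 lies upstream of its IRF core. The GENCODE start of Cx3cl1 also lies inside its window, upstream of the RefSeq start. Cx3cl1 holds no match.

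The listed ligands of CCR2, the receptor by which inflammatory monocytes are recruited, had lower means in Snai2-/- cells. Ccl2 averaged 97.6 in control libraries against 52.1 without Snai2 per the authors' deposited table, giving a ratio of 0.534 (p = 0.0324, FDR 0.596). Ccl7, which also binds CCR1 and CCR3, averaged 32.8 against 9.14 per the authors' deposited table, giving a ratio of 0.278 (p = 0.0115, FDR 0.470). That is 3.59 times lower, the largest fold among the lower chemokine genes. The other CCR2 ligand of the family, Ccl12, was not listed. Neither were Ccl11, Ccl8 and Ccl1, which lie in the same cluster on chromosome 11. A gene outside the table either missed the p limit or was not among those tested, and these cannot be told apart. An opposite-strand gene, Gm17268, overlaps Ccl2 and was not listed.

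The listed CXCR3 ligands, which draw activated T cells and natural killer cells, were also lower. Cxcl9 averaged 73.6 in control libraries against 46.5 without Snai2 per the authors' deposited table, giving a ratio of 0.631 (p = 0.0420, FDR 0.624). Cxcl10 averaged 70.8 against 41.5 per the authors' deposited table, giving a ratio of 0.587 (p = 0.0461, FDR 0.640). The 2 ratios lie close together, and no test of their difference is possible on group means. The third ligand, Cxcl11, is a transcribed pseudogene in the RefSeq annotation of this assembly and was not listed. Cxcl10 lies under Art3 on the opposite strand, which was not listed. It shares 4.47% of the 31-base words of the Cxcl10 transcripts.

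Both membrane-anchored chemokines, which are made with a stalk and shed by proteases, had the lower mean in Snai2-/- cells. Cxcl16 (chromosome 11, 70453983 to 70459984, minus strand), the ligand of CXCR6, averaged 42.7 in control libraries against 21.2 without Snai2 per the authors' deposited table. Its ratio was 0.497, with the smallest p of the 10 genes (p = 0.00453, FDR 0.381, rank 199 of 1285 per the authors' deposited table). The gene Zmynd15 overlaps Cxcl16 on the opposite strand and shares 18.5% of the 31-base words of its transcripts. Zmynd15 was also listed, at 2.37 in control libraries against 0.679 without Snai2 per the authors' deposited table, giving a ratio of 0.286. The library kit does not mark the strand, so reads in the overlap cannot be assigned to either gene.

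Cx3cl1 (chromosome 8, 94772009 to 94782427, plus strand), or fractalkine, is the ligand of CX3CR1 on monocytes and macrophages. Its means were 307.1 in control libraries against 242.2 without Snai2 per the authors' deposited table, giving a ratio of 0.789 (p = 0.0291, FDR 0.588). Of all listed genes, 98.3% had a larger absolute log2 ratio. This was the smallest fold of the 10 genes, a log2 ratio of -0.34. Its flanking chemokine genes on chromosome 8, Ccl22 and Ccl17, were not listed.

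Ccl6 and Ccl9, ligands of CCR1 that myeloid cells produce in the mouse, had higher means in Snai2-/- cells. Ccl9 averaged 5.84 in control libraries against 15.6 without Snai2 per the authors' deposited table, giving a ratio of 2.68 (p = 0.0213, FDR 0.539). Ccl6 averaged 0.412 against 2.32 per the authors' deposited table, giving a ratio of 5.62 (p = 0.0112, FDR 0.470). Its log2 ratio of 2.49 was the largest of the 10 in size, but its total was in the lowest quartile of listed genes, where the median absolute log2 ratio was 1.95. With 1 added to both means it was 1.23. CCR1 thus had listed ligands in both directions, Ccl6 and Ccl9 higher and Ccl7 lower, and Ccl3 and Ccl5 were not listed.

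The non-coding gene E230016K23Rik overlaps Ccl6 on the opposite strand. It averaged 0.0350 in control libraries against 0.776 without Snai2 per the authors' deposited table, giving a ratio of 22.2. As with Cxcl16, reads in the overlap cannot be assigned without strand. Markers of several cell types also differed between the groups. From a list of 14 neutrophil genes, 7 stood in the table and all 7 had the higher mean without Snai2, with a median log2 ratio of 2.43 and summed means of 186.4 in control and 820.1 in Snai2-/- cells. That is 50% of the list, beside 7.69% of all genes tested that were listed and 3.77% listed as higher. The list was chosen with earlier results of these data known, so nothing is read from that share. Ngp, a granule protein gene, averaged 49.2 against 281.5 per the authors' deposited table. Of 16 monocyte and macrophage genes only Adgre1 was listed, 6.25% and so near the share of all genes, with means of 0.0560 and 0.695 per the authors' deposited table. Csf1r, Lyz2 and Itgam were among the genes of that list that were not listed. From the neutrophil list, S100a8, Elane, Mpo, Mmp8, Mmp9, Cxcr2 and Retnlg were not listed. Of 8 genes shared by all leukocytes only Cd48 was listed (12.5%), at 1.21 against 3.64 per the authors' deposited table. Ptprc, which encodes CD45, was not listed. None of 9 lymphocyte genes was listed.

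Osteoblast genes were higher where listed, 4 of 8 (50%, beside 7.69% of all genes tested that were listed and 3.77% listed as higher). This list too was chosen with earlier results of these data known, so nothing is read from its share. The 4 listed genes had summed means of 2882 in control and 16675 in Snai2-/- cells. Most of both sums came from Col1a1 alone, at 2546 and 15245 per the authors' deposited table. Col1a1, the main collagen of bone, showed a ratio of 5.99 per the authors' deposited table, and the mineralization genes Dmp1, Ifitm5 and Alpl ratios of 8.62, 8.17 and 2.56. Of 8 erythroid genes Car1 was listed (12.5%), at 45.7 against 137.1 per the authors' deposited table. Of 11 endothelial genes (18.2% listed) Flt4 was listed with a ratio of 2.09 and Vwf with 0.0598 per the authors' deposited table. Des was the 1 listed gene of 6 (16.7%) that mark pericytes and smooth muscle, with a ratio of 0.406 per the authors' deposited table. The shares of these last lists rest on 1 or 2 listed genes each, and nothing is read from them. In sorted bulk RNA, more cells of a type and more RNA per cell cannot be told apart, and the part of these cells in the chemokine values was not tested.

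Cxcl5 (chromosome 5, 90759360 to 90761624, plus strand), a ligand of the neutrophil receptor CXCR2, had the higher mean in Snai2-/- cells. The means were 10.8 in control libraries against 22.1 without Snai2 per the authors' deposited table, giving a ratio of 2.05 (p = 0.0377, FDR 0.614). It was the 1 listed gene of 5 CXCR2 ligands. Cxcl1, Cxcl2, Cxcl3 and Cxcl15 lie in the same cluster and were not listed, nor were the platelet chemokine genes Pf4 and Ppbp.

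Ccl19 (chromosome 4, 42754525 to 42756577, minus strand) is a ligand of CCR7, which guides dendritic cells and T cells into lymphoid tissue. It averaged 13.3 in control libraries against 19.6 without Snai2 per the authors' deposited table, giving a ratio of 1.47 (p = 0.0384, FDR 0.615). By shared words, reads of Ccl19 are the hardest of the 10 to assign to 1 gene. Of the 31-base words of its transcripts, 58.8% also occur in the transcripts of other genes. Gm2564, a near copy, holds all of the shared words, and Ccl19-ps3 holds 32.8% of the Ccl19 words. How the authors' counting treated such reads is not stated. The protein-coding gene 4930578G10Rik also overlaps Ccl19 on the opposite strand, and it was not listed. Ccl19 was the 1 listed gene of 6 homeostatic chemokines, and Cxcl12, Cxcl13, Cxcl14, Ccl25 and Ccl28 were not listed.

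**Figure D3:**
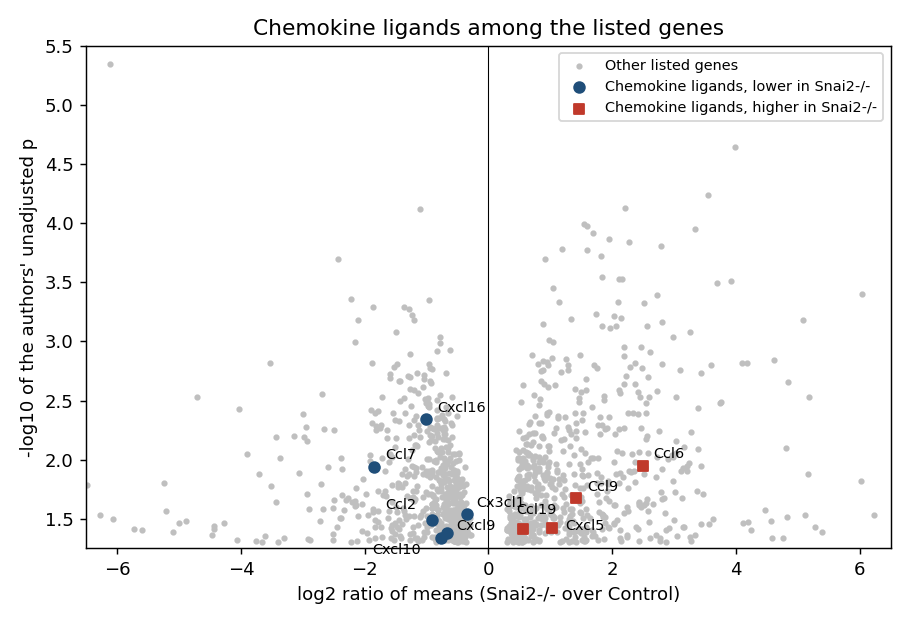
Log2 ratio of means (Snai2-/- over control) against -log10 of the authors' unadjusted p for the listed genes, with the chemokine genes named. Circles are lower and squares higher in Snai2-/- cells. The 10 genes lie among the other listed genes, and 10 genes with a group mean near 0 or beyond 6.5 on the log2 axis are not drawn.

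Against genes of a like total, 8 of the 10 chemokine genes had a larger absolute log2 ratio than the median of their quartile of totals. Ccl19 and Cx3cl1 were the exceptions. The median absolute log2 ratio was 0.96 in the second quartile, which holds Ccl9, Cxcl5 and Ccl19. It was 0.68 in the third, with Cxcl16 and Ccl7, and 0.60 in the highest, with Ccl2, Cxcl9, Cxcl10 and Cx3cl1. The limit on p admits only large folds for genes with low means, so these medians describe the table and not all genes.

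Of the 34 genes of the name pattern in RefSeq, 10 were listed and 24 were not, a listed share of 29.4% beside 7.69% of all genes tested. How many of the 34 the authors tested is not known, and no test of that share was made. None of 24 genes of chemokine receptors, the atypical ones included, was listed. CCR2, CXCR3, CXCR6, CX3CR1, CCR1, CXCR2 and CCR7 are borne mainly by leukocytes, which the sort selects against. Whether the sort bears on the receptor genes not being listed was not tested.

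The genes that carry interferon signals were lower where listed, like Cxcl9 and Cxcl10. From a list of 19 signalling genes, 3 stood in the table and all 3 were lower (15.8% of the list, beside 3.91% of all genes tested), with a median log2 ratio of -0.88. Irf7 and Stat2, transcription factors of the type I response, had ratios of 0.543 and 0.611 per the authors' deposited table, and Usp18, a brake on the receptor, one of 0.339. Irf1 and the genes of the interferon-gamma receptor, through which Cxcl9 is induced, were not listed. From a list of 25 interferon-induced effectors, 9 stood in the table and all 9 were lower (36% of the list), with a median log2 ratio of -1.03. Iigp1, an interferon-induced GTPase, averaged 291.8 in control libraries against 178.0 without Snai2 per the authors' deposited table, giving a ratio of 0.610. That ratio lies between those of Cxcl10 and Cxcl9. None of these genes passed FDR 0.05. Both lists were drawn up with their direction already known, so they add no independent evidence.

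Of 28 NF-kB and inflammatory genes, which drive or accompany inflammatory chemokines, 3 were listed, 2 lower and 1 higher. That is 10.7%, near the 7.69% of all genes tested. They had a median log2 ratio of -0.56. The receptors Tlr2 and Tlr4, which sense microbial products and can induce Ccl2, had ratios of 0.654 and 0.676 per the authors' deposited table. Il6, another product of that response, averaged 3.50 in control libraries against 13.5 without Snai2 per the authors' deposited table, giving a ratio of 3.85. That direction is opposite to Ccl2 and Ccl7. It is the same as that of Cxcl5, the other listed ligand of the inflammatory class, with a ratio of 2.05 per the authors' deposited table. No NF-kB subunit or inhibitor on the list was listed.

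Proteases that cut chemokines were represented by 2 listed genes of 10, both higher in Snai2-/- cells. That is 20%, beside 7.69% of all genes tested that were listed and 3.77% listed as higher, and it rests on 2 genes. Mmp2, which can cleave Ccl7 into a form that blocks its receptors, averaged 132.1 in control libraries against 275.6 without Snai2 per the authors' deposited table, giving a ratio of 2.09. Mmp13, a collagenase, averaged 1033 against 3699 per the authors' deposited table, giving a ratio of 3.58. Adam10 and Adam17, the sheddases of Cxcl16 and Cx3cl1, and Dpp4 were not listed. Protein levels were not measured.

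**Figure D4:**
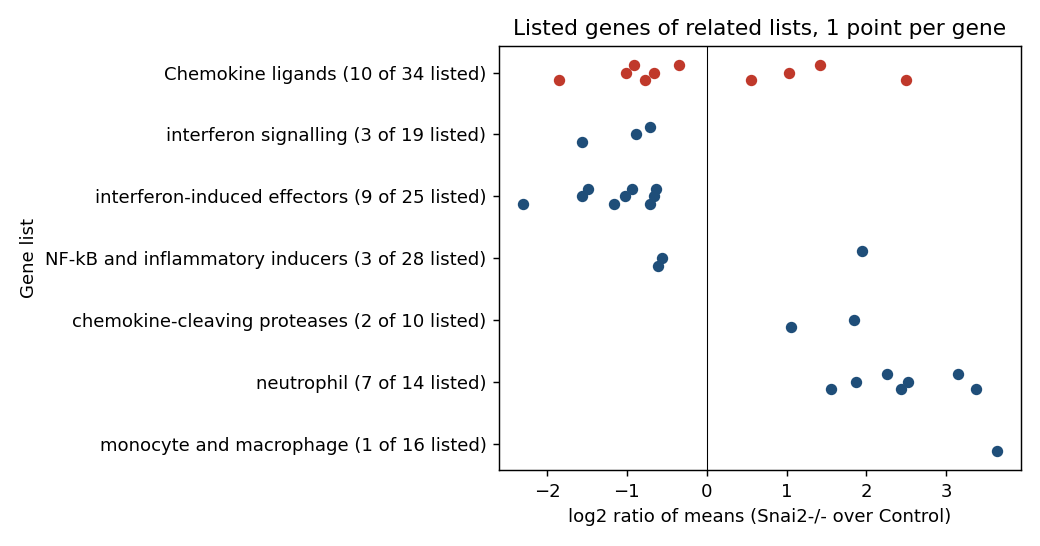
Log2 ratio of means (Snai2-/- over control) of the chemokine genes and of listed genes of 6 related lists, 1 point per gene, with the number listed of each list in brackets. The 12 points of the interferon lists lie below 0 and the 7 neutrophil points above 0, while the chemokine genes lie on both sides (the point nearest 0 is Cx3cl1).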

How the data were processed

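Bulk RNA-seq of sorted MSPCs was compared between 3 control and 3 Snai2-/- libraries, grouped by their titles. Per the labels' protocols, cDNA was made with SMART-Seq v4 and Nextera XT, which do not mark the strand. Named in the submitters' processing notes are edgeR 3.12.0, HTSeq, Trim Galore and mm10, with the aligner, annotation and model not given in the sources used here. Per the file headers, the authors deposited a p-value and step-up FDR, a ratio of means, a signed fold change (a score here, minus the reciprocal for lower genes) and a least-squares mean per group. The header's Mutant was taken for Snai2-/- and its Wildtype for control. Means and totals were deposited as a normalized signal. Of 1285 totals 0 are whole, and all 1285 equal 3 times the sum of the means (relative tolerance 1e-06).

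No library values were at hand, so no model was fitted and the depth is unknown. The number of genes tested, 16718, was recovered from FDR, rank and p, a step tested on simulated data (10 of 10 tables). Log2 ratios carry no pseudocount. Members and lists were chosen with earlier results of these data known, and all listed genes of the lists could be named. Genes were placed with GENCODE M21 (GRCm38, the same assembly as mm10). Promoters came from RefSeq (GRCm38.p6) and were aligned locally (match 2, mismatch -1, gap opening -5, extension -1). Words of 31 bases were compared over GENCODE transcripts. Python 3.11.15, numpy 2.4.6, pandas 2.3.3, matplotlib 3.10.9 and Biopython 1.88 were used. Alternatives were limits on p, fold, mean and FDR, pseudocounts, centring and a wider name pattern.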

Additional observations from a re-analysis of the deposited data

How the results depend on the processing

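The count of lower chemokine genes, 6, became 2 at p below 0.02 (Cxcl16 and Ccl7), 1 at p below 0.01 (Cxcl16) and 2 at 2-fold or more (Cxcl16 and Ccl7). The count of higher ones, 4, became 1 at p below 0.02 (Ccl6) and 0 at p below 0.01. At an FDR of 0.5, 3 genes passed (Cxcl16, Ccl6 and Ccl7) against 0 at 0.05, 0.1, 0.2 and 0.3. Centring took 1 constant, the median of the listed genes (-0.36), from every log2 ratio, so Cx3cl1, at -0.34, had to turn (0.0136). That median comes from genes chosen by p and is no value of no change, so nothing is read from the turn or from the directions kept. A pseudocount of 1 moved Ccl6 from 2.49 to 1.23 on the log2 scale, while the linear ratios of the other 9 moved by less than 1.5 times. A fold limit of 1.5, minimum means of 1 and 10 and the wider pattern left both counts within 1.5 times. No paired analysis was possible because only means of each group were at hand. Leaving out libraries was not run for that reason, so whether 1 library decides a value was not tested.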
